A study of Homo sapiens with 6 samples.

Results

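The mRNAs of 9 genes that encode immune checkpoint ligands were followed in HT1080 cells, a human fibrosarcoma line, with and without stable overexpression of PGK1, the glycolytic enzyme phosphoglycerate kinase. The genes were CD274, PDCD1LG2, CD276, CD47, NT5E, PVR, NECTIN2, LGALS9 and ICOSLG, picked by symbol from the 21619 entries of the count table, and each stood on 1 entry. They were picked with results of the same comparison already known, so their differences between the groups are given as a description, without a test. PolyA RNA was sequenced from 3 libraries of cells labelled WT and 3 libraries of cells labelled PGK1 OE (PGK1_OE below). Both groups are HT1080 cells with no other treatment named, and all carry 1 batch label. Whether the WT cells hold an empty vector, whether the PGK1_OE cells are 1 clone and whether replicates came from separate cultures is not in the labels. The p-values below thus reflect library-to-library spread alone, possibly technical.

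Most checkpoint ligands sit on the cell surface and are read by receptors on T cells, natural killer cells and macrophages. Many of them lower the activity of the cell that binds them. CD274 (PD-L1) and PDCD1LG2 (PD-L2) are the ligands of the receptor PD-1, encoded by PDCD1. Transcription of CD274 in tumour cells is known to respond to interferon gamma through JAK kinases and IRF1, and also to growth and stress signals, and the protein is kept at the cell surface by partners such as CMTM6. CD276 and ICOSLG belong with CD274 to the B7 family, PVR and NECTIN2 are nectin-type adhesion proteins shared by the receptors TIGIT and CD226, CD47 binds SIRPA on macrophages, NT5E (CD73) is an enzyme that makes adenosine outside the cell, and LGALS9 is a galectin that binds HAVCR2.

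Depth was 34425162 to 40538274 counts per library. PGK1 itself, which checks the labels, had 18621 to 19801 counts in the WT libraries and 437633 to 533638 in the PGK1_OE libraries, a 24.2-fold higher mean after scaling. Introduced and endogenous copies are counted together. Levels below are CPM, read counts normalised to library size, as mean ± SD with n = 3. All 12 mesenchymal markers of the line had reads, with summed levels of 5056 to 5846 CPM in WT and 9271 to 9664 CPM in PGK1_OE. THY1 was near the floor, with 15, 16 and 20 counts in WT and 2, 0 and 4 in PGK1_OE. Of these markers 10 rose and 2 fell at an edgeR adjusted p under 0.05, which 71.2% of all entries tested passed in either direction. Of 12 leukocyte markers, PTPRC, MS4A1 and CD14 had 0 counts in every library, and the list summed to 224 to 250 CPM in WT and 228 to 256 CPM in PGK1_OE, nearly all of it from CD68, and of 5 tested 1 fell. Of 8 epithelial markers 4 were at 0 (EPCAM, KRT5, KRT14 and GRHL2), 2 of 3 tested fell, and the list summed to 4.73 to 5.91 CPM in WT and 1.12 to 3.35 CPM in PGK1_OE. The 6 endothelial markers summed to 4.39 to 5.99 CPM in WT and 10.3 to 13.4 CPM in PGK1_OE, and of 3 tested only PECAM1 passed, upward. The part of these low and shifting epithelial and endothelial signals in the results below was not tested.

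The promoters were read first, since the regulators of CD274 are described further on. RefSeq windows on GRCh38.p14 were matched for 8 of the 9 genes, all but PDCD1LG2, and the 250 bases before the annotated start were searched on both strands. CD274 is shown because its window holds interferon-type motifs, PVR because it is the other abundant gene with a lower level in PGK1_OE, and CD47 because it holds the core of the hypoxia motif. Only the stretch before the first GENCODE 29 exon in the window is printed. Each runs in the direction of transcription, from chr9:5450292-5450502 on the plus strand for CD274, chr19:44643660-44643797 on the plus strand for PVR and chr3:108091032-108091281 on the minus strand for CD47, whose stretch lies in an intron of a longer GENCODE transcript.
CD274: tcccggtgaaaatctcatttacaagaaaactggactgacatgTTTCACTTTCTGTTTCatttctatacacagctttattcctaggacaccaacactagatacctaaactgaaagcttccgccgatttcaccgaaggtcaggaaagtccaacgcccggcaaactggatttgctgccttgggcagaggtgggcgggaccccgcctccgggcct
PVR: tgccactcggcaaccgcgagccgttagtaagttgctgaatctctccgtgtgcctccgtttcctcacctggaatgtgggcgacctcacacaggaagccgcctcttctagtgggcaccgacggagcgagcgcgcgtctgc
CD47: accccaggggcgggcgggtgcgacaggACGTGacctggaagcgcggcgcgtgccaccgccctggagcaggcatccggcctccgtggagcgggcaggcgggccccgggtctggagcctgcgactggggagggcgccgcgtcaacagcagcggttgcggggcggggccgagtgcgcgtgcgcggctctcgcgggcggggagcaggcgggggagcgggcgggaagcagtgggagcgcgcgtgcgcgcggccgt
Capitals mark every match to 6 motifs. These are the interferon-stimulated response element (ISRE, written GAAA, then any 2 bases, then GAAA), the AP-1 site (TGANTCA), the E-box (CACGTG), the core of the hypoxia response element (ACGTG, which lies within the E-box), the element bound by ATF4 with C/EBP factors (TGATGNAA), and the NF-kB site by its name. CD274 held 2 overlapping ISRE matches on the minus strand, from 208 to 199 and from 202 to 193 bases before the start, and was the only one of the 8 genes with this motif, which 3.02% of 35116 promoter windows hold. The ACGTG core was found in CD47 and in 1 of the 2 windows of CD276 (18.5% of all windows), and the NF-kB site in the same CD276 window (9.96%). None of the 8 genes matched the AP-1 site (6.57% of all windows), the E-box (6.34%) or the ATF4 element (3.14%), and PVR, NT5E, NECTIN2, LGALS9 and ICOSLG matched none of the 6. The GC box (GGGCGG), which is not capitalised, was found in 6 of the 8 genes, all but PVR and LGALS9, and in 42.6% of all windows. GENCODE 29 exons already cover the first base of the CD276 window with the ACGTG core and of the NT5E and LGALS9 windows. Matches and absences in these windows thus do not describe sequence before all annotated exons. A match describes letters in the window and shows no binding.

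CD274 had the largest fitted difference of the 9 genes and was much lower in PGK1_OE. WT replicates 1, 2 and 3 held 17954, 17113 and 17408 reads of it, and PGK1_OE replicates 1, 2 and 3 held 1533, 1516 and 1421. Scaled to library size these were 474, 484 and 476 CPM against 38.3, 38.2 and 40.3 CPM. All 3 PGK1_OE libraries lay far below all 3 WT libraries, and within each group the libraries differed little, with a coefficient of variation (SD over mean) of 1.16% in WT and 3.04% in PGK1_OE. The means were 478 ± 5.55 CPM and 39.0 ± 1.18 CPM, a 12.3-fold lower level in PGK1_OE, and the fitted log2 fold change was -3.62 (SE 0.04). A larger fitted change in either direction was found for 1.24% of the 14322 entries that passed the filter on low counts. The deposited FPKM values (counts per gene length and library size) gave the same picture, 123, 127 and 123 in WT and 9.69, 9.66 and 10.1 in PGK1_OE. In bulk RNA, fewer cells with the transcript and less transcript per cell cannot be told apart, and protein was not measured.

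PDCD1LG2, the second ligand of PD-1, was also lower in PGK1_OE, by a smaller factor. It had 813, 823 and 667 counts in WT and 383, 493 and 400 counts in PGK1_OE. The groups did not overlap, and the means were 21.0 ± 2.56 CPM and 11.1 ± 1.44 CPM (log2 fold change -0.92, SE 0.12), a 1.89-fold lower level. On the FPKM scale CD274 exceeded PDCD1LG2 by a ratio of 14.8, 13.9 and 17.5 in WT, against 2.68, 2.06 and 2.38 in PGK1_OE. CD274 was the more abundant of the pair in every library, and its lead was smaller in each PGK1_OE library than in any WT library. Both genes lie on the plus strand of chromosome 9 (CD274 from 5450503 to 5470566 and PDCD1LG2 from 5510570 to 5571254 in GENCODE 29), with 40.0 kb between them, and neither overlaps another annotated gene.

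**Figure D1:**
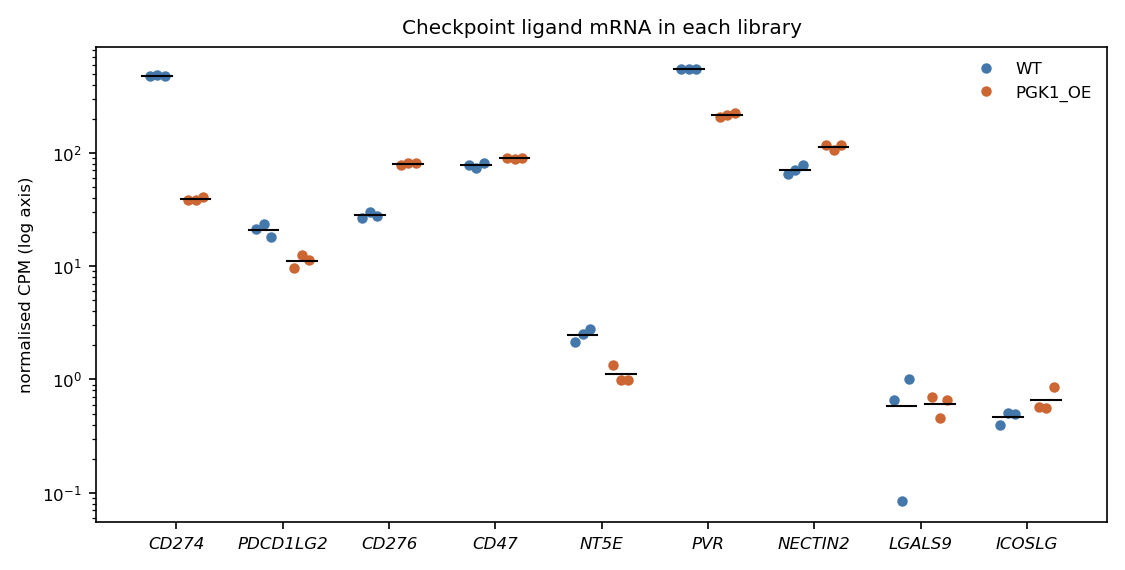
Normalised CPM on a log axis for the 9 ligand genes, with 1 point per library (3 WT in blue, 3 PGK1_OE in orange) and a bar at each group mean. CD274 has means of 478 and 39.0 CPM, PVR has means of 551 and 217 CPM, and LGALS9 is the gene whose groups overlap.

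The other B7 genes stood higher in PGK1_OE or were close to the detection limit. CD276 (B7-H3), an inhibitory ligand found on many solid tumours, had 1013, 1068 and 1017 counts in WT and 3124, 3222 and 2856 counts in PGK1_OE. All PGK1_OE libraries were above all WT libraries, at 80.1 ± 1.76 against 28.2 ± 1.79 CPM, a 2.84-fold higher level (log2 fold change 1.50, SE 0.06). ICOSLG, the ligand of the costimulatory receptor ICOS, had 15, 18 and 18 counts in WT and 23, 22 and 30 in PGK1_OE. Its groups did not overlap in CPM, yet the exact 95% Poisson intervals of single libraries ran from 8.40 to 24.7 counts in WT replicate 1 and from 20.2 to 42.8 in PGK1_OE replicate 3. They cover counting error only. Its fitted log2 fold change was 0.50 with an SE of 0.40, and 0.28 without PGK1_OE replicate 3.

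The nectin-type ligands stood on opposite sides. PVR (CD155) had 20770, 19530 and 20232 counts in WT and 8326, 8613 and 7942 in PGK1_OE. The WT libraries were close together, with a coefficient of variation of 0.471% in CPM and 3.21% in FPKM. Every PGK1_OE library was below them, at 217 ± 8.61 against 551 ± 2.60 CPM, a 2.54-fold lower level (log2 fold change -1.35, SE 0.04). NECTIN2 (CD112) had 2479, 2478 and 2846 counts in WT and 4683, 4225 and 4121 in PGK1_OE. All PGK1_OE libraries were above all WT libraries, at 114 ± 6.05 against 71.1 ± 6.22 CPM, a 1.60-fold higher level (log2 fold change 0.67, SE 0.07). The ratio of PVR to NECTIN2 on the FPKM scale was 6.85, 5.87 and 5.43 in WT and 1.23, 1.47 and 1.46 in PGK1_OE, so PVR remained the more abundant in each library. The 2 genes share the plus strand of chromosome 19, PVR from 44643798 to 44663583 and NECTIN2 from 44846175 to 44889228, with 183 kb between them. PVR overlaps CEACAM19 on the same strand, which had 70 counts over all libraries, and both genes overlap antisense genes. Strand use in counting is not given in the sources used here, so these values may include antisense reads.

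The ligand read by macrophages differed little and the adenosine-producing enzyme was scarce. CD47, the signal that restrains phagocytosis, had 2960, 2615 and 2976 counts in WT and 3584, 3529 and 3168 in PGK1_OE. In CPM the PGK1_OE libraries (89.6, 89.0 and 89.9) were above the WT libraries (78.1, 74.0 and 81.3), a 1.15-fold higher mean with a log2 fold change of 0.20 (SE 0.05), or 0.13 on log2(FPKM + 1). NT5E had 81, 89 and 102 counts in WT and 54, 39 and 35 in PGK1_OE, which is 2.48 ± 0.326 against 1.11 ± 0.209 CPM (log2 fold change -1.16, SE 0.27). The groups did not overlap, and the coefficient of variation was 13.1% and 18.8%, larger than for the abundant ligands. LGALS9 had 25, 3 and 37 counts in WT and 28, 18 and 23 in PGK1_OE, and its groups overlapped (log2 fold change 0.04, SE 0.66). WT replicate 2 set the low end, with 3 counts (exact 95% Poisson interval 0.619 to 8.77) against 37 in WT replicate 3 (26.1 to 51.0). Without WT replicate 2 the log2 fold change was -0.46 and without WT replicate 3 it was 0.69, so no direction can be given. LGALS9 is further uncertain because its near copies LGALS9B (3 to 25 counts per library) and LGALS9C (0 to 6) may share reads with it. On the same strand, 2356 of its 5714 exonic bases also lie within AC015688.4, which had 0 counts. How reads in such shared stretches were counted is not given.

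The remaining genes lie on other chromosomes in the same annotation. CD276 spans 73683966 to 73714518 on chromosome 15, NT5E 85449584 to 85495791 on chromosome 6 and LGALS9 27629798 to 27649560 on chromosome 17, each on the plus strand. CD47 spans 108043094 to 108091862 on chromosome 3 and ICOSLG 44217014 to 44240966 on chromosome 21, both on the minus strand.

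All 9 genes passed the filter on low counts. The 3 libraries of each group did not overlap for 8 of the 9 genes, against 76.4% of all entries tested, and since the comparison was known when the genes were picked, nothing is read from the count. The median log2 fold change over the 9 genes was 0.04, against -0.02 over all entries. The 9 genes thus stood on both sides of 0, with CD274 the farthest out.

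Levels between genes were compared per length, on the FPKM scale. In WT the order of mean FPKM was PVR (163), CD274 (124), NECTIN2 (27.1), CD47 (14.4), CD276 (9.07), PDCD1LG2 (8.17), NT5E (0.712), LGALS9 (0.244) and ICOSLG (0.0623). The libraries of CD276 and PDCD1LG2 overlapped there, as did those of LGALS9 and ICOSLG, and the other neighbours in this order did not. In PGK1_OE the order was PVR (57.9), NECTIN2 (41.8), CD276 (23.5), CD47 (15.8), CD274 (9.82), PDCD1LG2 (4.18), NT5E (0.309), LGALS9 (0.193) and ICOSLG (0.0886). Here only NT5E and LGALS9 overlapped among neighbours. CD274 thus held rank 2 in WT and rank 5 in PGK1_OE, and CD276 rank 5 and rank 3.

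Summed over the 9 genes, the FPKM was 348, 350 and 344 in WT, against 150, 151 and 159 in PGK1_OE. The mean was thus 2.26-fold lower in PGK1_OE. The lower sum came mainly from CD274 (mean FPKM 124 in WT and 9.82 in PGK1_OE) and PVR (163 and 57.9). Mean FPKM was also lower for PDCD1LG2, NT5E and LGALS9, and was higher for NECTIN2, CD276, CD47 and ICOSLG. CD274 made up 35.8 ± 0.506% of that sum in WT and 6.39 ± 0.0468% in PGK1_OE. PVR made up 46.9 ± 1.41% and 37.7 ± 1.62%, and NECTIN2 7.82 ± 0.720% and 27.2 ± 1.82%. CD276 made up 2.61 ± 0.355% and 15.3 ± 1.06%, and CD47 4.14 ± 0.136% and 10.3 ± 0.304%. For each of these genes the shares of the WT libraries lay apart from those of the PGK1_OE libraries. PDCD1LG2 had a share of 2.35 ± 0.285% and 2.72 ± 0.351%, with overlapping libraries. Shares are relative to a sum that was lower in PGK1_OE, so they do not follow levels. The mean FPKM of CD47 was 14.4 in WT and 15.8 in PGK1_OE, and that of PDCD1LG2 was 8.17 and 4.18. A sum of FPKM is a sum of transcript levels and not of surface protein.

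**Figure D2:**
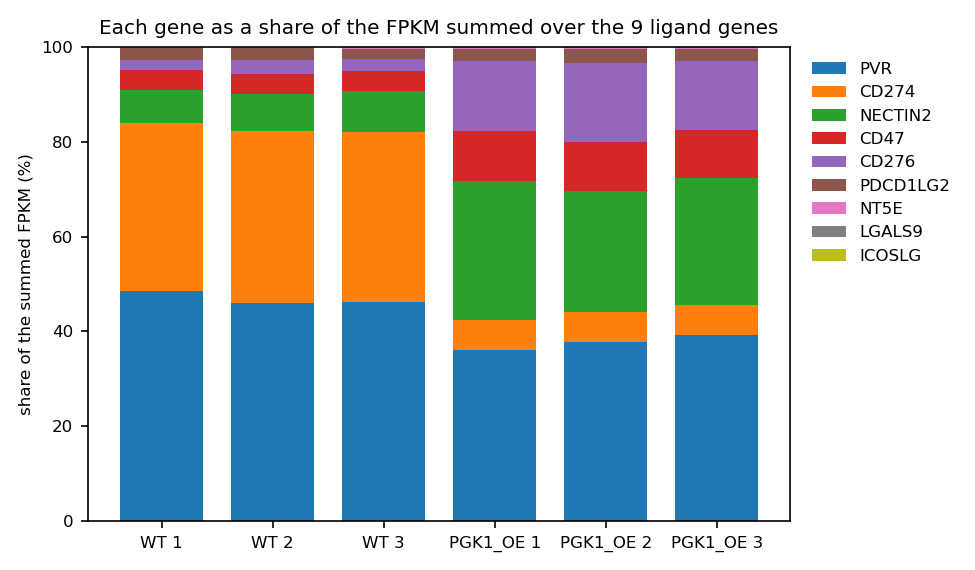
Share of each gene in the FPKM summed over the 9 ligand genes, in percent, with 1 stacked bar per library. CD274 takes about 35.8% of each WT bar and 6.39% of each PGK1_OE bar, while NECTIN2, CD276 and CD47 take larger shares in PGK1_OE. The sum itself was lower in PGK1_OE, so a larger share need not mean a higher level.

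The genes whose values over the 6 libraries were closest to those of CD274 were sought among 10717 other annotated entries with a mean log2 CPM of at least 2. Closeness was the root mean square difference of log2 CPM after each gene was centred on its own mean. The closest were SNAPC1, a subunit of a small nuclear RNA transcription complex (0.0346), MYC, a growth-promoting transcription factor (0.0502), GADD45A, a stress-inducible growth arrest gene (0.0980), CLIP4 (0.132) and the cytokine IL24 (0.132). MYC, for example, had a mean of 418 ± 4.99 CPM in WT against 33.3 ± 1.54 CPM in PGK1_OE. With 2 groups this likeness rests mostly on the size of the difference between the groups, and nothing about shared control follows from it.

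**Figure D3:**
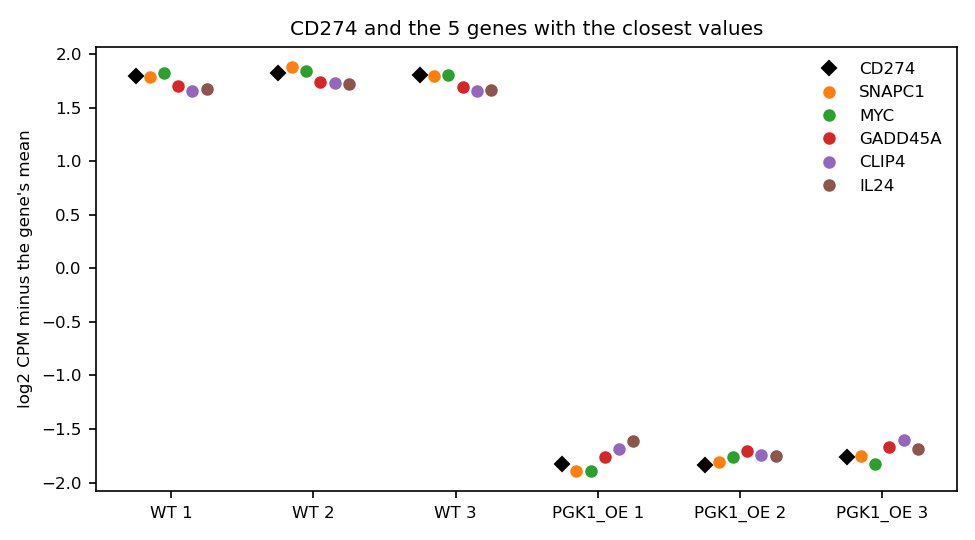
Log2 CPM minus each gene's own mean in the 6 libraries, for CD274 (black diamonds) and the 5 genes with the smallest root mean square difference from it. All 6 genes sit between 1.65 and 1.88 in WT and between -1.89 and -1.60 in PGK1_OE.

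Genes around the ligand pair on the short arm of chromosome 9 were compared next. Of 9 neighbours tested, 6 fell, 1 rose and 2 did not pass, and their median log2 fold change was -0.22. Their lower ends lay from -658 kb (RCL1) to 963 kb (UHRF2) of that of CD274, so not all are adjacent genes. INSL4, 1 of those that fell, was near the floor, with 31, 11 and 14 counts in WT and 5, 10 and 4 in PGK1_OE. Of all 14322 entries tested 71.2% passed an edgeR adjusted p under 0.05, 35.4% higher and 35.8% lower in PGK1_OE. For the called genes named from here on, all 3 PGK1_OE libraries lay on 1 side of all 3 WT libraries, and p-values are edgeR's, adjusted over all entries by Benjamini-Hochberg. PLGRKT, a plasminogen receptor gene 12.6 kb before CD274, fell from a mean of 30.2 ± 3.68 CPM to 20.2 ± 1.53 CPM, which is -0.58 ± 0.10 (SE) on the log2 scale (edgeR adjusted p = 1.85e-04). JAK2, a kinase of the interferon gamma receptor, fell by 0.67 on the log2 scale, from 38.9 ± 4.34 to 24.5 ± 0.281 CPM (edgeR adjusted p = 1.50e-05). RCL1, an rRNA-processing gene, fell by 1.84 and RANBP6, an importin, rose by 1.05 on the log2 scale. CD274 had a lower fitted value than each of these 9 neighbours and PDCD1LG2, at -3.62 against a range of -1.84 to 1.05.

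**Figure D4:**
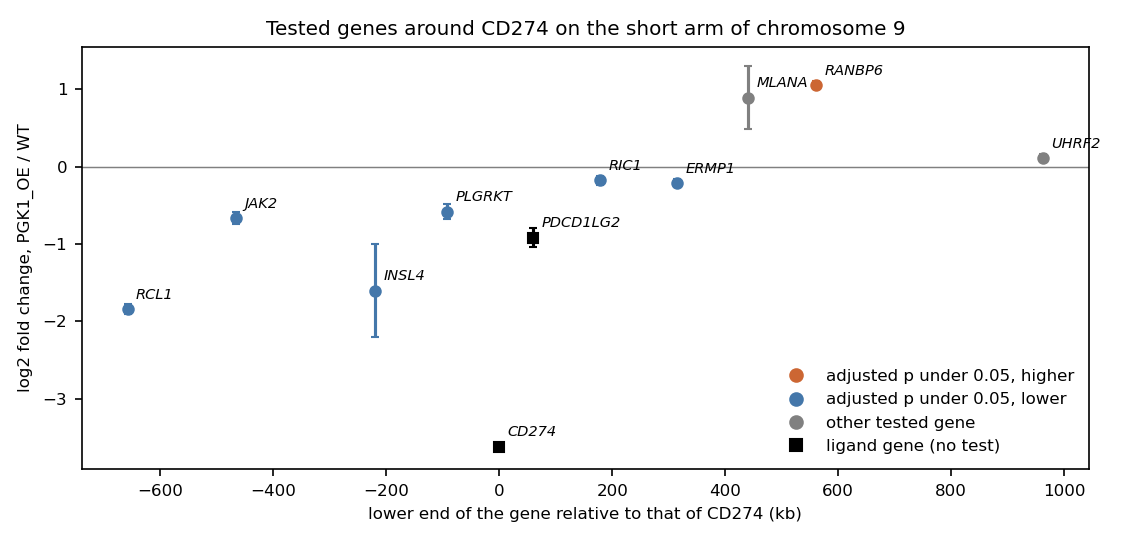
Log2 fold change (PGK1_OE over WT, bars 1 SE) of tested genes by distance in kb of their lower end from that of CD274. CD274 (square, -3.62) lies below RCL1 (-1.84), PLGRKT (-0.58) and RANBP6 (1.05), which stand on either side.

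Of 16 genes known to act on CD274 transcription, all were tested, 9 fell, 6 rose and 1 did not pass, with a median log2 fold change of -0.36. Beside MYC, the largest falls were those of HIF1A, the oxygen-regulated factor, from a mean of 2529 ± 113 CPM to 950.2 ± 12.0 CPM, which is -1.41 ± 0.04 (SE) on the log2 scale (edgeR adjusted p = 8.46e-11), and JUN, an AP-1 subunit, from a mean of 380 ± 25.1 CPM to 147 ± 3.08 CPM, which is -1.37 ± 0.05 (SE) on the log2 scale (edgeR adjusted p = 5.22e-10). IRF1, an interferon-induced factor that can bind ISRE motifs, went from a mean of 24.2 ± 1.58 CPM to 18.2 ± 1.40 CPM, which is -0.41 ± 0.09 (SE) on the log2 scale (edgeR adjusted p = 0.00103). This call was lost on the FPKM scale, where limma on log2(FPKM + 1) gave -0.17 (adjusted p = 0.198). IRF1 and JAK2 overlap genes on the opposite strand, with 840 and 31 counts over all libraries. Among the 6 genes that rose were IRF9 (0.92), STAT3 (0.80) and IFNGR2 (0.37). IFNGR1, which encodes the other chain of the interferon gamma receptor, fell by 1.22 on the log2 scale. It went from 87.7 ± 5.46 CPM to 37.7 ± 1.14 CPM (edgeR adjusted p = 4.40e-09). Interferon pathway genes thus stood on both sides of 0.

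Of 18 genes that act on the CD274 protein 17 were tested, of which 11 rose, 5 fell and 1 did not pass (median 0.21). CMTM6, which keeps the protein from lysosomal breakdown, had 7553, 6418 and 7425 counts in WT and 17513, 17153 and 15029 in PGK1_OE. It rose from a mean of 195 ± 11.4 CPM to 432 ± 5.67 CPM, which is 1.15 ± 0.04 (SE) on the log2 scale (edgeR adjusted p = 9.96e-10), so it was higher in the libraries where CD274 mRNA was lower. Its relative CMTM4 rose by 1.19, the palmitoyltransferase ZDHHC3 by 0.99 and the kinase CDK5 by 1.12 on the log2 scale. For ZDHHC3 the difference on log2(FPKM + 1) was smaller, at 0.55. CMTM6, ZDHHC3 and CDK5 each overlap another gene on the opposite strand.

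The receptors PDCD1, ICOS and TIGIT were at or near 0 in these tumour cells. PDCD1 had 0, 3 and 2 counts in WT and 0 in each PGK1_OE library, ICOS had 0 in all, and TIGIT had 16, 10 and 4 counts in WT and 0, 8 and 0 in PGK1_OE. Of 14 receptors and binding partners 8 were tested, of which 3 rose, 1 fell and 4 did not pass (median 1.29). That median is unsteady, since CD226 (1.27, SE 0.89) and ADORA2A (2.03, SE 1.73) enter it and did not pass. CD226 had 12, 0 and 5 counts in WT and 6, 24 and 13 in PGK1_OE. ADORA2A had 129, 0 and 3 counts in WT and 239, 172 and 143 in PGK1_OE. SIRPA, the receptor of CD47, had 418, 304 and 382 counts in WT and 1184, 1268 and 1079 in PGK1_OE. It rose from 10.0 ± 1.27 CPM to 30.7 ± 1.19 CPM with a log2 fold change of 1.62 (SE 0.10, edgeR adjusted p = 4.03e-08). SIRPG (1.50) and the matrix protein THBS1 (1.31), both of which bind CD47, rose as well, and the adenosine receptor ADORA2B fell (-1.04). On log2(FPKM + 1) SIRPG, a low gene, differed by 0.63. SIRPA and SIRPG are close copies that may share reads, and THBS1 overlaps FSIP1 on the opposite strand (234 counts over all libraries).

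The wider CD47 axis, which holds SIRPA, SIRPG and THBS1 again, had 10 tested genes of 11, of which 8 rose, 0 fell and 2 did not pass (median 0.87). CALR, a chaperone that acts as an uptake signal when on the surface, rose from a mean of 395 ± 32.2 CPM to 1404 ± 13.2 CPM, which is 1.83 ± 0.05 (SE) on the log2 scale (edgeR adjusted p = 4.15e-10). QPCTL, the enzyme that modifies CD47 for SIRPA binding, rose from a mean of 23.4 ± 1.85 CPM to 31.5 ± 1.50 CPM, which is 0.43 ± 0.08 (SE) on the log2 scale (edgeR adjusted p = 2.93e-04), and overlaps the abundant SNRPD2 on the opposite strand. ITGB3, an integrin subunit that can associate with CD47, rose by 1.13 on the log2 scale (0.55 on log2(FPKM + 1), where low values change less by construction).

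Of 14 genes around the adenosine step of NT5E 10 were tested, of which 4 rose, 3 fell and 3 did not pass (median 0.66). ADORA1, which rose, was near the floor, with 6, 0 and 0 counts in WT and 12, 11 and 20 in PGK1_OE. CD38, which fell, was also low, with 21, 27 and 14 counts in WT and 9, 7 and 5 in PGK1_OE. The median also depends on SLC29A2 (1.06, SE 0.52), a low gene that did not pass. ENTPD1 (CD39), the enzyme that supplies AMP to NT5E, went from a mean of 26.7 ± 1.44 CPM to 31.7 ± 3.47 CPM, which is 0.25 ± 0.08 (SE) on the log2 scale (edgeR adjusted p = 0.0206). It no longer passed when WT replicate 1 (adjusted p = 0.0775), PGK1_OE replicate 2 (0.105) or PGK1_OE replicate 3 (0.0695) was left out, nor with library totals (0.0509) or on log2(FPKM + 1) (0.514). ENPP1, which also releases AMP, rose by 1.51, and the nucleoside transporter SLC29A1 rose by 1.45 on the log2 scale. ADK, which removes adenosine inside the cell, fell by 0.46.

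Other ligands of the same families were examined for comparison. Of 13 other B7 and butyrophilin genes 6 were tested, 3 rose, 2 fell and 1 did not pass (median 0.14), and the classical costimulators were near the detection limit, with 0 counts of CD86 and between 0 and 8 of CD80 per library. BTN2A1 fell by 0.81 and BTN2A2 by 0.73 on the log2 scale, while BTN3A2 (1.22) and BTN3A3 (1.09) rose, and members of this family are close copies that may share reads. Of 23 further inhibitory and natural killer cell ligands 16 were tested, 9 rose, 2 fell and 5 did not pass (median 0.36). NECTIN1, a paralog of NECTIN2 and PVR, rose from a mean of 8.75 ± 0.917 CPM to 42.7 ± 1.43 CPM, which is 2.29 ± 0.08 (SE) on the log2 scale (edgeR adjusted p = 7.02e-10). The CD2 ligand CD58 (1.07) and HMGB1 (1.09), a nuclear protein that binds HAVCR2 when released, rose, as did ULBP2 (1.44), a ligand of the activating receptor KLRK1, and HMGB1 has processed copies that may share reads. For HMGB1 the difference on log2(FPKM + 1) was smaller, at 0.48.

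Over these lists, 68 of 86 distinct genes tested passed, 42 upward and 26 downward, against 71.2% of all entries. The lists share genes and were compiled with earlier results known, and nothing particular to them is read from these counts.

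**Figure D5:**
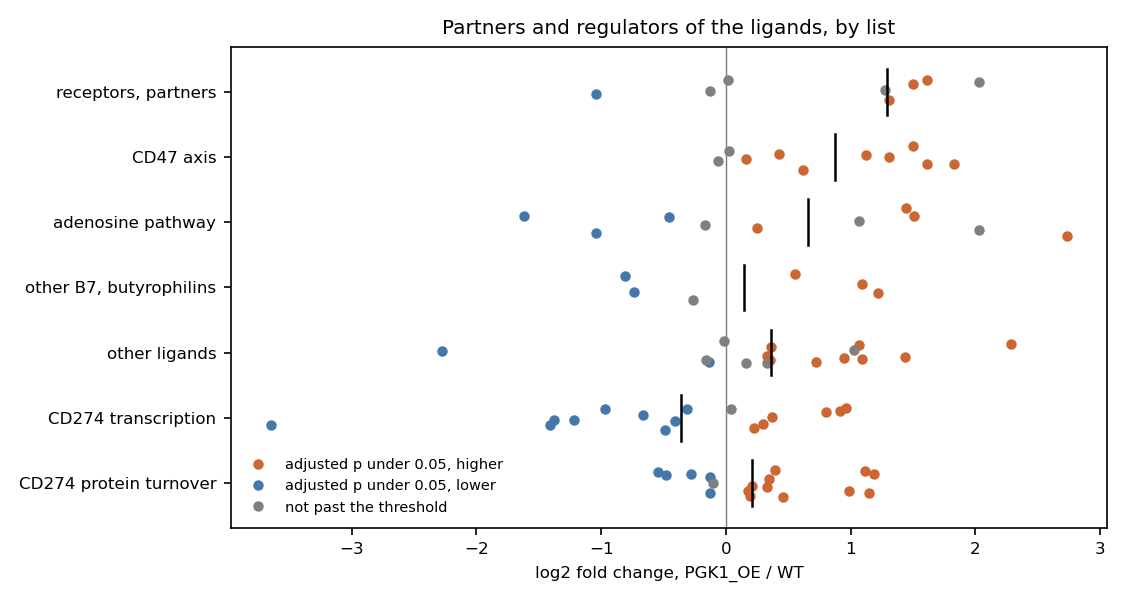
Log2 fold change (PGK1_OE over WT) of each tested gene in 7 lists of partners and regulators, with 1 point per gene and a vertical bar at the list median. Genes of CD274 transcription lie on both sides of 0 (9 fell, 6 rose, median -0.36, with MYC at -3.65). Those of the CD47 axis lie mostly above (median 0.87).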

How the data were processed

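The mRNA was captured on beads and made into libraries with a commercial kit, per the labels' protocols. The tools fastp and HISAT and the build hg38 are listed, per the submitters' processing notes. Their versions, the counter, the strand setting and the annotation are not given in sources used here. The deposited table of raw read counts per gene has 21619 entries, 1158 of them assembled MSTRG loci. The FPKM table deposited by the authors was used for levels between genes.

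Counts were fitted in R 4.3.3 with edgeR 4.0.16 (filterByExpr, TMM, quasi-likelihood F test, two-sided, group as the only term), which left 14322 entries. Benjamini-Hochberg adjustment ran over all of them, and an adjusted p under 0.05 was called. SE is the absolute log2 fold change over the square root of F. Normalised CPM use TMM-scaled library sizes, and log2 CPM a prior count of 2. The steps were run on simulated counts in which few genes were changed, equally up and down. Far more entries were called here, so that run cannot check the scaling or the rate of false calls in these data. No library was a duplicate of another: chi-square over degrees of freedom was 7.93 to 15.2 between replicates.

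The members, gene lists and tests were chosen with earlier results of these data known. Named genes are PGK1, the 9 members and the 5 closest to CD274. Of each list, up to 4 tested genes with the smallest adjusted p are named, plus PDCD1, SIRPA, TIGIT, IRF1, JAK2, CMTM6, QPCTL, ENTPD1 and PLGRKT. ICOS, CD80, CD86, IRF9, STAT3, IFNGR1, IFNGR2, INSL4, CD226, ADORA2A, ADORA1, CD38 and SLC29A2 were named after their values were seen. One further gene that the rule names is not reported here. The neighbour gene KIAA2026 was not analysed here. Positions come from GENCODE 29 (GRCh38), matched by Ensembl identifier. Alternatives used DESeq2 1.42.0 and limma 3.58.1, among others listed at the end.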

Additional observations from a re-analysis of the deposited data

How the results depend on the processing

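In all 18 other settings were tried: scaling by RLE, by library totals or with PGK1 omitted, testing every entry with a count or those with 1 CPM in 3 libraries, DESeq2, limma-voom, limma on FPKM (offset 1 or 0.1 with a minimum of 1 FPKM in 3 libraries, and offset 1 with no minimum), an adjusted p under 0.01, the replicate block, and each library left out in turn. Entries called ranged from 8831 to 10343 (10195 as reported), and related genes called from 57 to 69 (68 as reported). CD274 ranged from -3.66 to -3.54, PVR from -1.49 to -1.31, CD276 from 1.29 to 1.56, NECTIN2 from 0.61 to 0.75 and CD47 from 0.13 to 0.24 on the log2 scale, and PDCD1LG2 came no closer to 0 than -0.81, each with 1 direction throughout. NT5E ranged from -1.32 to -1.06 in the count fits and was -0.39 on log2(FPKM + 1) without the filter, an offset that by construction shrinks changes of low values. ICOSLG ranged from 0.04 to 0.61, and LGALS9 from -0.46 to 0.69 with a positive value in 10 of 15 other settings. The FPKM filter removed NT5E, LGALS9 and ICOSLG, and the minimum of 1 CPM removed LGALS9 and ICOSLG. Of the other genes named by the rule, IRF1 lost its call in the 3 FPKM fits (limma adjusted p = 0.198, 0.199 and 0.296) and ENTPD1 lost its call in 8 settings. HMGB1 and ZDHHC3 kept theirs at 0.48 and 0.55 on log2(FPKM + 1) (the cause was not tested). None of these other genes named by the rule changed direction.

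Replicate numbers are shared by the groups, but the deviations of same-numbered libraries correlated by -0.0134, -0.0129 and 0.0952, so the numbers were not taken to pair the samples, and WT replicate 3 alone correlated best with its own number. With the replicate block 9943 entries and 68 related genes were called. Depth limits LGALS9, ICOSLG and the receptors PDCD1 and TIGIT, with 37 counts or fewer per library.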
